A study of Mus musculus with 12 samples.

Results

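The 10 glycolytic enzyme genes Hk2, Gpi1, Pfkp, Aldoa, Tpi1, Pgk1, Pgam1, Eno1, Pkm and Ldha were followed across 6 tumour RNAs of a mouse squamous cell carcinoma. The 10 genes were chosen with earlier results of these data known. Their spots were taken by gene name: every array spot carrying one of these symbols, or an older or newer form of it such as Pkm2 for Pkm. This gave 17 probes for 10 of the 27656 genes or other features on the array. Each gene is given by its probe of highest mean signal. The probes of Gpi1 and Pgk1 that stood for their genes were printed 10 times on each array.

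NR-S1, a highly metastatic squamous cell carcinoma, grew in the hind leg of male C3H/HeMsNrs mice (the series text writes C3H/HeNrs). Primary tumours were taken 1 week, and lung metastases 2 weeks, after the primary had reached a diameter of 7.5 mm. The primary had been left unirradiated, given 8 Gy of gamma rays or given 5 Gy of carbon ions, and the primaries and the metastases came from different mice. The 6 RNAs were therefore the unirradiated primary, the gamma primary and the carbon primary, and the unirradiated, gamma and carbon metastasis, the last 2 named for the beam that the leg tumour received. All were RNA of tumour cells cut out by laser microdissection and amplified before labelling. The source names call them clone 1, with no further word on what the clone was, and say nothing of how many mice gave each RNA.

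In glycolysis, hexokinase traps glucose as glucose 6-phosphate, phosphofructokinase commits it to breakdown, aldolase splits the sugar, and the lower steps lead through phosphoglycerate and enolpyruvate to pyruvate. Lactate dehydrogenase A turns pyruvate into lactate and so restores the NAD that the pathway consumes. Squamous carcinomas commonly run glycolysis at a high rate, and many of its genes are textbook targets of hypoxia-inducible factor, which binds a short element with the core ACGTG or GCGTG.

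Each of 12 two-colour Agilent arrays carried 2 of the RNAs, and every pair was hybridised in both dye orientations. A log2 ratio is given with the first RNA in Cy5 and then in Cy3, followed by the mean ± SD of these 2 orientations. That SD holds array and dye error only, since each group was 1 RNA, so no difference had a check between animals and no p-value was computed. A gene was called where its ratio was at least 2-fold with the same sign in both orientations. On each array 53.8% to 68.8% of the spots per channel were well above background and no spot was saturated. All 10 enzyme genes were above background in every channel. In bulk RNA of this kind, fewer cells of a type and less RNA per cell cannot be told apart.

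RefSeq's promoter table for GRCm38.p6 held an entry for each of the 10 genes. The 250 bases before the most upstream start listed there were searched on both strands. For Pfkp, Aldoa and Ldha this window lies within the annotated gene. ACGTG or GCGTG was found in the window of 6 of the 10 genes, against 38.6% of 32817 promoters in the table. ACGTG was found in 4, against 16.6%, and GCGTG in 3, against 28.1%, and Pgam1 held both. The E-box CACGTG, which contains ACGTG, was found among the 10 only in the window of Ldha, against 6.02% of all promoters. Each member counts once here, while the shares count every distinct listed start. Aldoa and Pkm, without a match in this window, had ACGTG before a more downstream listed start. A match is a description of the sequence and does not show a bound site. Of Pfkp, Tpi1 and Eno1, the genes with the lowest mean ratio over the 3 metastases, those whose window lies outside the annotated gene are printed, with Pgam1, which held the most matches among such windows. Capitals mark ACGTG and GCGTG or their reverse complements, and each sequence reads 5′ to 3′ along the gene's strand. The windows are chr6:124814159-124814408 on the minus strand for Tpi1, chr19:41911621-41911870 on the plus strand for Pgam1 and chr4:150236458-150236707 on the plus strand for Eno1.
Tpi1: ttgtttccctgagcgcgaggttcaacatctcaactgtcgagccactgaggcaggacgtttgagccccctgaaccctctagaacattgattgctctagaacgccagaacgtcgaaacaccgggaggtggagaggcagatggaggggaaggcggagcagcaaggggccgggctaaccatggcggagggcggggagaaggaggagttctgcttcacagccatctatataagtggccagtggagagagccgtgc
Pgam1: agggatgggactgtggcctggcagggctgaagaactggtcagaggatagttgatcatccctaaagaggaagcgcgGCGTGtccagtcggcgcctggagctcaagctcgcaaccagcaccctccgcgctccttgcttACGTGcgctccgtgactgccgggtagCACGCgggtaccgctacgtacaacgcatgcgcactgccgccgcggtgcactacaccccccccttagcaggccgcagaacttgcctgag
Eno1: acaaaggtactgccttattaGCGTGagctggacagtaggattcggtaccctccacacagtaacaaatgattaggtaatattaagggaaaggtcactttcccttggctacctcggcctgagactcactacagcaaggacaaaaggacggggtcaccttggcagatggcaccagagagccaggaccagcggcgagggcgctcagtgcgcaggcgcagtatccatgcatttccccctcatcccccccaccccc
Tpi1, whose ratio in the unirradiated metastasis was the lowest of the 10, had neither core in this window.

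All 10 enzymes read below the unirradiated primary in the unirradiated lung metastasis, by 0.51 to 1.49 on the log2 scale (median -1.17). The median was -0.49 in the gamma metastasis and -0.15 in the carbon metastasis. The median over all measured genes lay between -0.03 and 0.06 in every comparison. Triose phosphate isomerase, phosphoglycerate kinase and the platelet form of phosphofructokinase fell past 2-fold in the unirradiated metastasis, which makes 3 of 10 against 1.69% of the 17101 genes measured there. No enzyme was called in the gamma metastasis, where 1.1% of all genes were lower, or in the carbon metastasis, where 1.03% were. The 3 comparisons share the same unirradiated primary RNA.

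**Figure D1:**
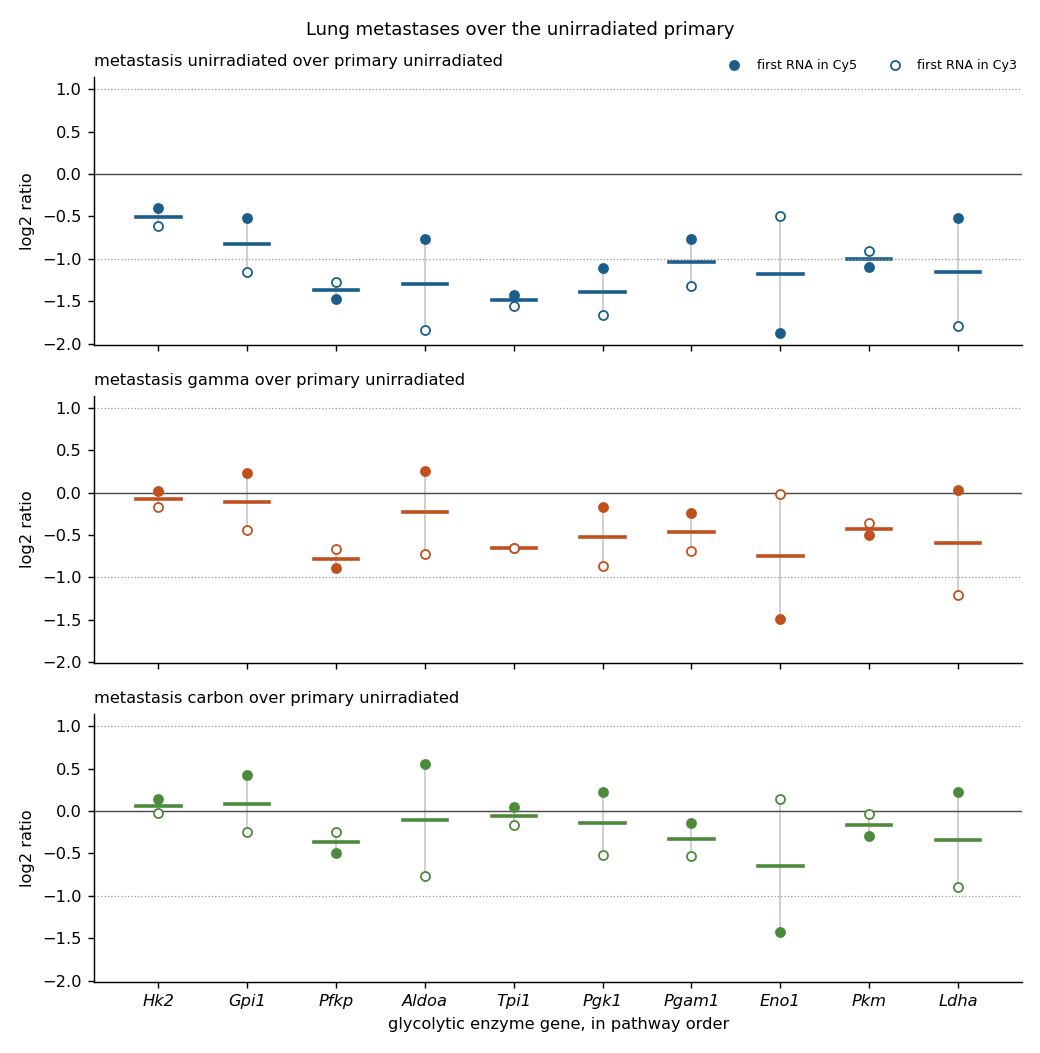
Log2 ratio of each enzyme gene in the unirradiated, gamma and carbon lung metastasis over the unirradiated primary, with the metastasis RNA in Cy5 (filled) or Cy3 (open), the mean as a bar and dotted lines at 2-fold. All 10 means lie below 0 in the upper panel (-1.49 to -0.51), and 8 of 10 do in the lowest panel (-0.65 to 0.08).

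At the head of the pathway, Hk2, the inducible hexokinase of many tumours, lay nearest to the primary among the 10 in the unirradiated metastasis. Its ratios to the unirradiated primary were -0.40 and -0.61 in the unirradiated metastasis (-0.51 ± 0.15). They were 0.02 and -0.17 in the gamma metastasis and 0.14 and -0.02 in the carbon metastasis. Gpi1, glucose 6-phosphate isomerase, read -0.52 and -1.15 in the unirradiated metastasis (-0.83 ± 0.44). In the other metastases the sign of Gpi1 turned with the dye, at 0.23 and -0.44 after gamma rays and 0.42 and -0.25 after carbon ions. The 10 spots of its probe gave an SD of 0.0379 to 0.0794 on single arrays, so the gap between the dyes is larger than the spread between spots.

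Pfkp, the platelet form of phosphofructokinase, fell in the unirradiated metastasis to -1.47 and -1.27 (-1.37 ± 0.15, 2.58-fold). It read -0.89 and -0.66 in the gamma metastasis and -0.49 and -0.25 in the carbon metastasis, so both dyes placed it below the primary in every metastasis. Pfkp also had dimmer probes. One of them, with a mean log2 intensity of 9.26, read -1.02 ± 0.45 in the unirradiated metastasis but 0.41 ± 0.44 in the gamma metastasis, and the dimmest, at 7.28, read -0.42 ± 0.18 and -0.43 ± 0.13.

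Aldoa, the main aldolase of growing cells and of muscle, read -0.76 and -1.84 in the unirradiated metastasis (-1.30 ± 0.76). Only 1 of its orientations passed 2-fold, so it was not called. In the gamma metastasis it read 0.25 and -0.72, and in the carbon metastasis 0.55 and -0.77. A second Aldoa probe gave means of -1.19, -0.16 and -0.03 in the same order.

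Tpi1, which interconverts the triose phosphates, showed the clearest steps. Its ratios were -1.42 and -1.55 in the unirradiated metastasis (-1.49 ± 0.09, 2.80-fold), -0.65 and -0.65 in the gamma metastasis, and 0.05 and -0.16 in the carbon metastasis (-0.06 ± 0.15). Both dyes thus gave nearly the same value, and the 3 metastases did not overlap.

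Pgk1, which makes the first ATP of the pathway, read -1.11 and -1.66 in the unirradiated metastasis (-1.39 ± 0.39, 2.61-fold). It read -0.17 and -0.86 in the gamma metastasis and 0.23 and -0.52 in the carbon metastasis. A second Pgk1 probe gave -1.34 ± 0.16, -0.46 ± 0.15 and -0.12 ± 0.34. Pgam1, the mutase of the next step, read -0.76 and -1.32 in the unirradiated metastasis (-1.04 ± 0.40) and was not called. Its ratios were -0.24 and -0.69 after gamma rays and -0.14 and -0.53 after carbon ions, below 0 in every orientation.

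Eno1, alpha enolase, read lower with the metastasis in Cy5 than in Cy3, as Pfkp and Pkm did by smaller gaps. Its ratios were -1.87 and -0.49 in the unirradiated metastasis (-1.18 ± 0.97), -1.49 and -0.02 in the gamma metastasis, and -1.43 and 0.14 in the carbon metastasis. Pkm, pyruvate kinase of muscle and tumours, read -1.09 and -0.91 in the unirradiated metastasis (SD 0.12), with 1 orientation just short of 2-fold. It read -0.50 and -0.36 after gamma rays and -0.29 and -0.03 after carbon ions. The file does not say which of the splice forms M1 and M2 the Pkm probes read.

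Ldha, which makes lactate, read -0.52 and -1.79 in the unirradiated metastasis (-1.16 ± 0.90). It read 0.03 and -1.21 in the gamma metastasis and 0.22 and -0.89 in the carbon metastasis. A second Ldha probe had far smaller gaps between the dyes, at -0.94 and -1.06 in the unirradiated, -0.64 and -0.66 in the gamma, and -0.07 and -0.33 in the carbon metastasis. The means of both probes followed the same order of the metastases.

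The gap between orientations was a property of the probes. Averaged over all 12 arrays as Cy5 over Cy3, the probe of Aldoa was shifted by 0.67, that of Ldha by 0.62, that of Pgk1 by 0.40 and that of Gpi1 by 0.38, while that of Eno1 was shifted by -0.71. The median size of this dye effect was 0.323 for the 10 enzymes and 0.0775 for 14475 genes measured throughout. Subtracting each probe's dye effect left the means of direct comparisons unchanged by design. It narrowed many of their SDs, to 0.03 for Eno1 and Ldha in the unirradiated metastasis. For Tpi1 in the gamma metastasis the SD widened from 0.00 to 0.13. The dye effect was estimated from these same arrays, so narrower SDs are partly built in. With the dye effect subtracted, 7 of 10 enzymes were lower past 2-fold in the unirradiated metastasis, against 1.98% of all genes. Gpi1, Pkm and Hk2 were not called. This correction was chosen after the data were seen.

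Normalisation set the depth of the shift as well. Centring each array on its median in place of loess gave medians of -1.39, -1.08 and -0.64 in the unirradiated, gamma and carbon metastasis, where the all-gene medians were -0.03, -0.10 and -0.11. The order of the 3 metastases was the same under both. The distance of the gamma and carbon metastasis from the primary depends on this choice, and only the unirradiated metastasis lay past a median of 2-fold under both. Several of these genes have near-identical processed pseudogenes in the mouse genome, and the share of each signal that came from such copies was not tested.

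The levels show the same order, but they were computed from the same arrays and ratios and are not a separate check. On the scale of log2 normalised intensity, Tpi1 read 16.11 to 16.53 in the 10 channels of the unirradiated primary (median 16.23). It read 14.79 and 15.11 in the unirradiated metastasis, 15.61 and 15.80 in the gamma metastasis, and 16.07 and 16.18 in the carbon metastasis. The unirradiated metastasis stood alone below every other channel, and the carbon metastasis overlapped the primary.

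Pfkp read 12.73 to 12.95 in the unirradiated primary (median 12.82), 11.38 and 11.47 in the unirradiated metastasis, 11.99 and 12.07 in the gamma metastasis, and 12.46 and 12.54 in the carbon metastasis. No metastasis channel of Pfkp reached the lowest primary channel. Pkm read 14.69 to 15.32 in the unirradiated primary (median 15.11), 14.22 and 14.24 in the unirradiated metastasis, 14.50 and 14.72 in the gamma metastasis, and 14.94 and 15.00 in the carbon metastasis. Ranked by mean level, the unirradiated metastasis was the lowest of the 6 RNAs for all 10 genes. Its channels lay wholly below those of the next RNA for Gpi1, Pfkp, Tpi1, Pgk1, Pgam1 and Pkm, and overlapped them for Hk2, Aldoa, Eno1 and Ldha.

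**Figure D2:**
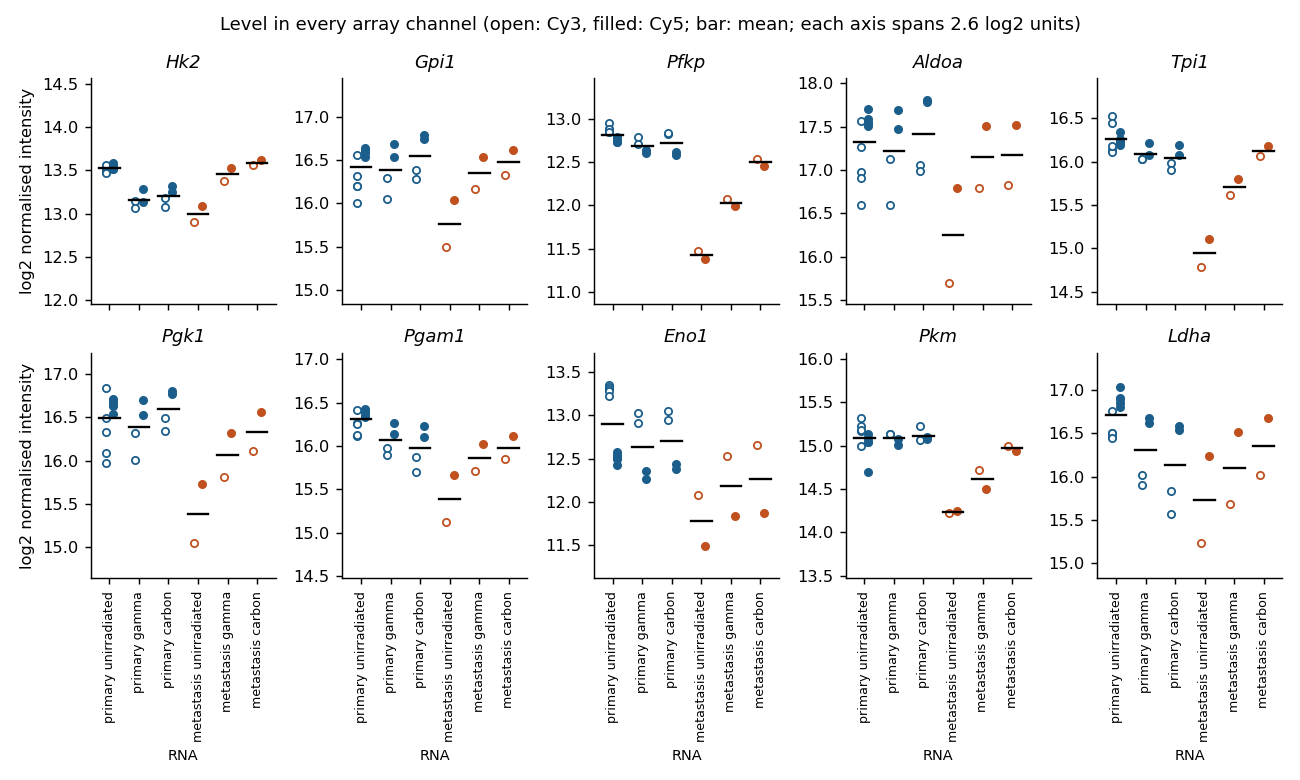
Log2 normalised intensity of each enzyme gene in every array channel, by RNA (open points Cy3, filled points Cy5, bars the mean; blue for primaries, orange for metastases). The unirradiated metastasis has the lowest mean in all 10 panels, and for Tpi1 its channels (14.79 and 15.11) lie below all others.

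The metastases were set against one another by subtracting their ratios to the shared unirradiated primary, dye by dye, which cancels each probe's dye effect. The SDs here are smaller for that reason, and do not show less spread between animals. Against the unirradiated metastasis, all 10 enzymes were higher in both orientations in the gamma metastasis, as were 40.2% of all genes. All 10 were also higher in the carbon metastasis, against 39.1% of all genes. Between carbon and gamma, 9 of 10 were higher in the carbon metastasis in both orientations, against 40.8% of all genes, with Aldoa the exception at 0.29 and -0.05. The full order of unirradiated below gamma below carbon in both orientations was met by those 9 of 10 enzymes, and by 13.6% of the 16361 genes measured.

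Past 2-fold, the gamma metastasis had 1 of 10 enzymes higher than the unirradiated metastasis, against 1.85% of all genes. This was Aldoa, at 1.02 and 1.13 (1.07 ± 0.08, 2.10-fold). The call sat at the threshold and was lost under median centring, with smaller background offsets, with scaling between arrays and with the scanner's own log ratios. Pgk1 read 0.94 and 0.80, Tpi1 0.77 and 0.90, and Gpi1 0.75 and 0.70. The other 6 lay between 0.43 for Eno1 and 0.59 for Pfkp, and the median was 0.58. The dimmer Pfkp probe that had stood apart in this RNA read 1.42 ± 0.01.

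The carbon metastasis had 3 of 10 enzymes higher than the unirradiated metastasis past 2-fold, against 1.85% of all genes, with a median of 0.88. Tpi1 rose most, at 1.47 and 1.39 (1.43 ± 0.06, 2.69-fold). Pgk1 rose to 1.34 and 1.14 (1.24 ± 0.14) and Aldoa to 1.31 and 1.08 (1.19 ± 0.16). Pfkp stood at the threshold, at 0.99 and 1.02. Gpi1 read 0.92 ± 0.03, Pkm 0.84 ± 0.06, Ldha 0.82 ± 0.11 and Pgam1 0.70 ± 0.12. Hk2, at 0.57 ± 0.03, and Eno1, at 0.53 ± 0.14, were nearest to the unirradiated metastasis. Under median centring only Tpi1 was called, and the median was 0.67.

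Between the carbon and the gamma metastasis no enzyme was called, against 0.239% of all genes higher. The ratios ran from 0.10 for Eno1 to 0.60 for Tpi1, with a median of 0.22. Tpi1 read 0.70 and 0.49, Pfkp 0.41 and 0.41, and Pgk1 0.40 and 0.34, each larger than its spread between orientations. The gamma and the unirradiated metastasis were hybridised on the same slide and the carbon metastasis on another, so slide and group cannot be told apart in the comparisons with carbon.

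**Figure D3:**
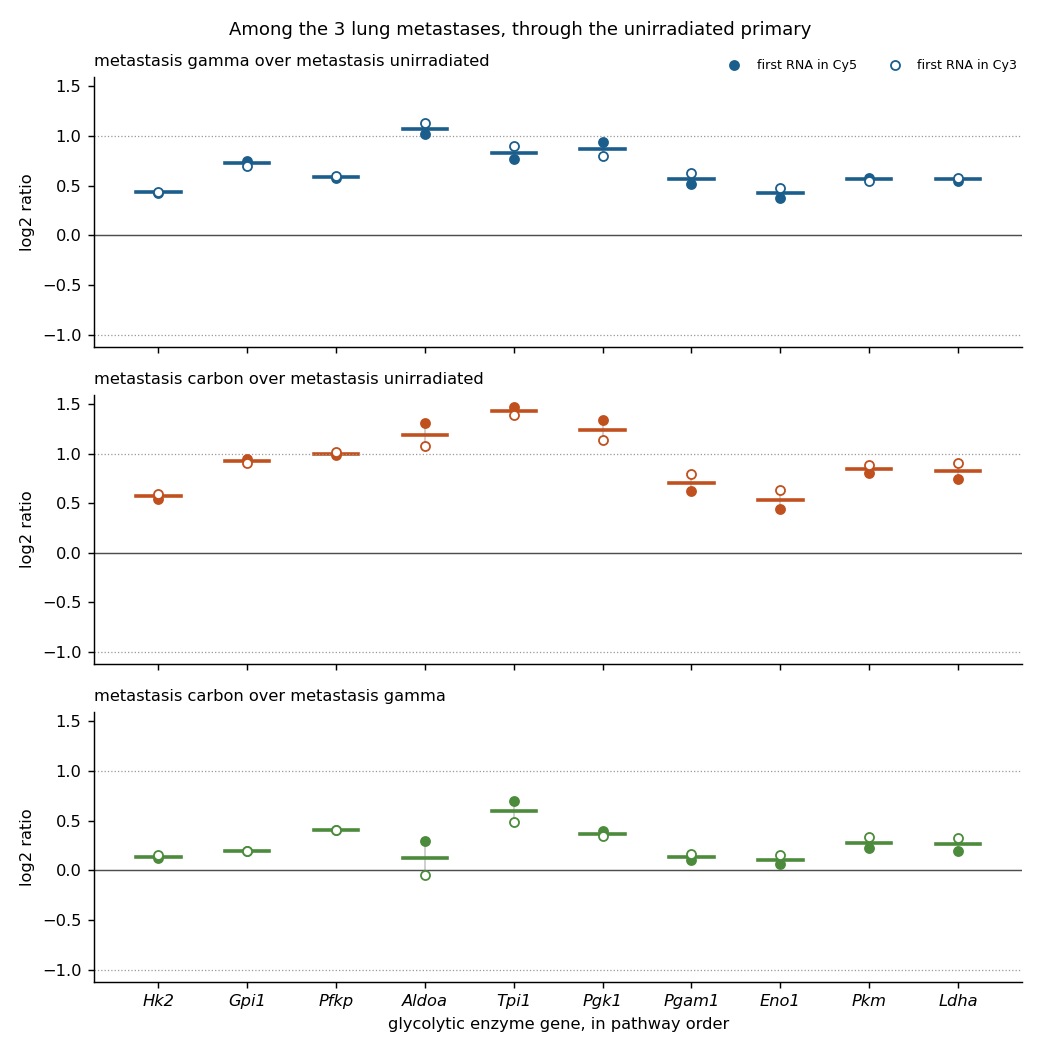
Log2 ratio of each enzyme gene between metastases, taken through the unirradiated primary, in both dye orientations with the mean as a bar and dotted lines at 2-fold. All 20 points of the upper and all 20 of the middle panel lie above 0, and the medians are 0.58, 0.88 and 0.22 from top to bottom.

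Irradiation of the primary itself was followed by no such shift. In the gamma primary no enzyme was called against the unirradiated primary, where 3.49% of all genes were called in either direction. The median of the 10 was -0.07, from -0.38 for Ldha to 0.13 for Pgk1. In the carbon primary again none of 10 was called, against 4.98% of all genes, and the median was -0.07. Hk2 was the only enzyme below 0 in both orientations of both comparisons, at -0.28 and -0.42 after gamma rays and -0.16 and -0.33 after carbon ions.

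The remaining genes show how far dye error reaches in these arrays. Aldoa read 1.18 and -0.47 in the carbon primary (0.36 ± 1.17), and Ldha 0.12 and -1.24 (-0.56 ± 0.96). The second Ldha probe read -0.22 and -0.65 (-0.43 ± 0.31) in the carbon primary and -0.15 and -0.47 in the gamma primary, below 0 with either dye. Tpi1 stayed within 0.21 of 0 on all 4 arrays. Pfkp read from -0.28 to 0.09 and Pkm from -0.16 to 0.37.

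The carbon primary was also hybridised directly against the gamma primary. None of 10 enzymes was called, against 1.04% of all genes, and the median was 0.06. The largest means were those of Aldoa (0.38 ± 1.20), Pgk1 (0.29 ± 0.67) and Gpi1 (0.22 ± 0.67), each smaller than its SD. The direct means differed from those taken through the unirradiated primary by -0.13 for Pkm to 0.12 for Aldoa.

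**Figure D4:**
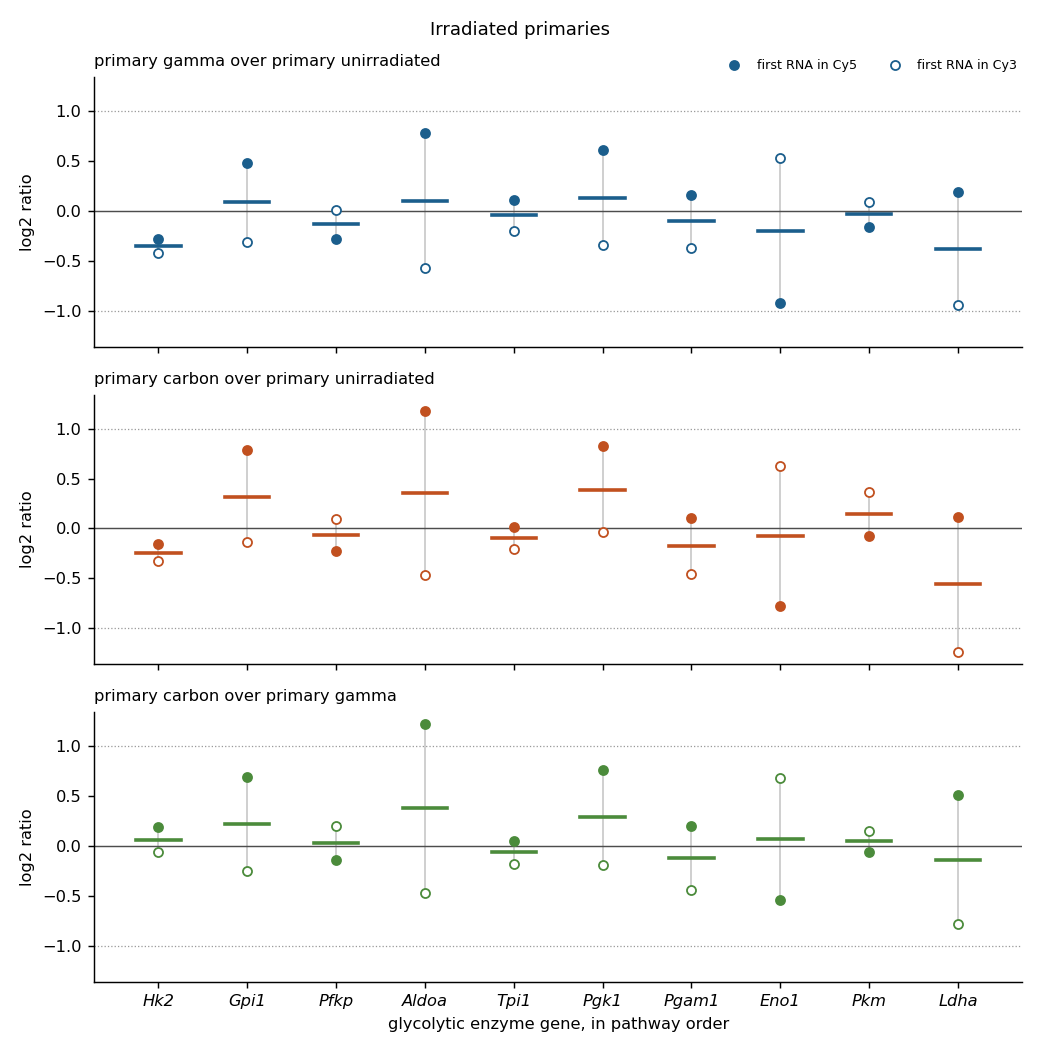
Log2 ratio of each enzyme gene in the gamma and the carbon primary over the unirradiated primary, and in the carbon over the gamma primary, with both dye orientations and the mean as a bar. The medians of the 10 means are -0.07, -0.07 and 0.06, and the wide gaps of Aldoa and Eno1 are gaps between dyes.

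Each irradiated group could also be compared site with site. In the gamma group, metastasis against primary, no enzyme was called, against 0.905% of all genes lower, and the median was -0.38. Pgk1 read -0.77 and -0.52, Pfkp -0.61 and -0.67, and Tpi1 -0.76 and -0.46. Hk2 alone lay above 0, at 0.30 and 0.25. In the carbon group no enzyme was called, against 1.93% of all genes lower, with a median of -0.27. There Hk2 read 0.30 and 0.31, Ldha 0.10 and 0.35, and Tpi1 0.04 and 0.04, while the other 7 lay between -0.57 for Eno1 and -0.16 for Pgam1. Aldoa read -0.64 and -0.29 and Pgk1 -0.60 and -0.48. The gap between metastasis and primary seen without irradiation, a median of -1.17, was therefore smaller in both irradiated groups. This difference was not tested. Without irradiation the gap was read within arrays, but in the irradiated groups it was taken across slides. Site also went with the week of sampling in every group, so these cannot be told apart.

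Genes called higher than in the unirradiated primary were more common than genes called lower, at 10.4% of all genes in the unirradiated, 8.82% in the gamma and 8.21% in the carbon metastasis, and counts of higher genes in the lists that follow stand against these shares. Among 16 related isoforms and neighbouring enzymes, 15 were measured in the unirradiated metastasis, of which 5 were lower and 1 higher past 2-fold (median -0.63). Eno2, neuronal enolase, fell most, at -2.26 ± 0.13, and it read -1.17 ± 0.11 in the gamma metastasis and -0.06 ± 0.12 in the carbon metastasis. Aldoc, the brain aldolase, read -1.77 ± 0.02, -0.65 ± 0.07 and 0.29 ± 0.01 in the same order. Both were thus ordered like the members and over a wider range.

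Against the unirradiated metastasis, Eno2 rose by 1.10 ± 0.02 in the gamma and 2.20 ± 0.01 in the carbon metastasis, and Aldoc by 1.13 ± 0.05 and 2.06 ± 0.01. They were the isoforms called there. Between carbon and gamma only Eno2 was called, at 1.11 ± 0.02. Pfkl, the liver phosphofructokinase, fell to -1.41 ± 0.29 in the unirradiated metastasis.

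Of the muscle forms, Eno3, muscle enolase, read -1.44 ± 0.15, -1.15 ± 0.17 and -1.06 ± 0.18 in the 3 metastases, and already -1.08 ± 0.20 in the gamma primary. Pfkm, muscle phosphofructokinase, read -1.34 ± 0.02, -1.09 ± 0.08 and -0.76 ± 0.07. Pgam2, the muscle mutase, fell in the gamma primary (-1.16 ± 0.12). Hk3, a hexokinase of blood cells, was the isoform that rose, by 2.30 ± 0.07, 1.53 ± 0.02 and 1.63 ± 0.08.

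Gapdh, which oxidises glyceraldehyde 3-phosphate, read -0.43 ± 0.12, 0.05 ± 0.13 and -0.06 ± 0.29 and was not called. Its probe was named through an older gene ID and had a mean log2 level of only 6.90 in the unirradiated primary. Ldhb, the lactate dehydrogenase subunit of oxidative tissue, read 0.40 ± 0.06, 0.14 ± 0.07 and 0.91 ± 0.06. In the carbon primary Ldhb read 0.81 ± 0.01, which is 1.75-fold, and was not called.

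Of 20 transporters and regulators, 4 were lower and 3 higher in the unirradiated metastasis, with a median of -0.17. Slc2a1, the glucose carrier GLUT1, fell to -2.62 ± 0.44, and read -1.49 ± 0.37 in the gamma and -1.04 ± 0.30 in the carbon metastasis. Slc2a1 also read below the unirradiated primary in the gamma primary, at -0.98 and -1.66, with 1 orientation past 2-fold, and in the carbon primary, at -0.52 and -1.15. Pdk1, the kinase that closes pyruvate dehydrogenase, fell to -2.88 ± 0.08, -1.31 ± 0.06 and -1.07 ± 0.04. Slc16a3, the lactate exporter MCT4, fell to -2.31 ± 0.04 in the unirradiated metastasis and read -0.89 ± 0.03 and -0.68 ± 0.04 in the others.

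Entry of glucose, exit of lactate and the inhibition of pyruvate dehydrogenase were therefore represented among the called genes. Against the unirradiated metastasis, the carbon metastasis was higher in Pdk1 (1.82 ± 0.04), Slc16a3 (1.63 ± 0.07) and Slc2a1 (1.57 ± 0.14), and the gamma metastasis in the same 3 genes (1.57 ± 0.03, 1.42 ± 0.07 and 1.13 ± 0.07). Slc2a3, the glucose carrier GLUT3, went the other way and fell by 1.27 ± 0.00 in the carbon metastasis.

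Pfkfb4, which sets the level of the phosphofructokinase activator, rose in all 3 metastases, by 2.84 ± 0.10, 2.02 ± 0.08 and 2.01 ± 0.03. Txnip, which restrains glucose uptake, rose by 1.88 ± 0.01, 1.49 ± 0.04 and 1.73 ± 0.08, and rose in the primaries too, by 1.11 ± 0.02 after gamma rays and 1.60 ± 0.07 after carbon ions. Slc16a7, the carrier MCT2, was called higher in all 3 metastases and was not above background in the unirradiated primary on the arrays with the gamma and carbon metastases, so its level there has only a bound. Pdk4 fell in all 3 metastases (-1.36 ± 0.16, -1.51 ± 0.20 and -1.34 ± 0.22) and in the gamma primary (-2.18 ± 0.18).

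The 15 hypoxia-induced genes outside glycolysis followed the enzymes in order but over a wider range. Their median was -1.99 in the unirradiated metastasis, with 13 of 15 lower past 2-fold, then -1.05 with 7 and -0.38 with 2. Adm, a peptide hormone, fell most in the unirradiated metastasis, at -4.70 ± 0.23, followed by Egln3 (-3.90 ± 0.04), a prolyl hydroxylase that marks hypoxia-inducible factor for decay. Bnip3, which acts in mitochondrial turnover, read -3.75 ± 0.34, and Ero1a, which drives protein oxidation in the endoplasmic reticulum, read -3.74 ± 0.07. Hif1a itself read -0.03 ± 0.28, -0.33 ± 0.29 and -0.46 ± 0.17.

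Against the unirradiated metastasis 7 of 15 were higher in the gamma metastasis (median 0.92) and 13 of 15 in the carbon metastasis (median 1.63). Adm rose by 3.17 ± 0.02 and 3.63 ± 0.09. In the gamma primary their median was -0.53, with 2 lower (Ero1a at -2.05 ± 0.08 and Adm at -1.29 ± 0.20). In the carbon primary it was 0.07 with 1 lower, Ero1a at -1.96 ± 0.02.

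Other branches of sugar metabolism showed no common shift. None of the genes of pyruvate dehydrogenase and the citrate cycle, 15 or 16 measured, was called in any of the 11 comparisons, and their median was -0.12 in the unirradiated metastasis. None of the 5 or 6 measured pentose phosphate genes was called either, with a median of 0.10 in the unirradiated metastasis. Of 11 glycogen genes, Gys1, glycogen synthase, fell in the unirradiated metastasis (-1.70 ± 0.18), as did the phosphoglucomutase Pgm1 (-1.39 ± 0.02), while the phosphorylase Pygl rose in all 3 metastases (2.28 ± 0.18, 1.40 ± 0.12 and 1.46 ± 0.10). Gys1 rose by 1.09 ± 0.06 in the carbon against the unirradiated metastasis.

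Of the gluconeogenic genes, which carry the reverse of the irreversible steps, Pcx, pyruvate carboxylase, rose in the 3 metastases (1.28 ± 0.10, 1.33 ± 0.18 and 1.41 ± 0.12) and in the carbon primary (1.71 ± 0.13). Fbp1 was above background in every metastasis array and in none of the unirradiated primary on those arrays. Pck2, the mitochondrial form of its enzyme, fell in the unirradiated and gamma metastases and in both irradiated primaries, by 1.35 ± 0.02, 1.29 ± 0.05, 1.32 ± 0.02 and 1.11 ± 0.06. None of the 10 cell cycle genes was called in any comparison.

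**Figure D5:**
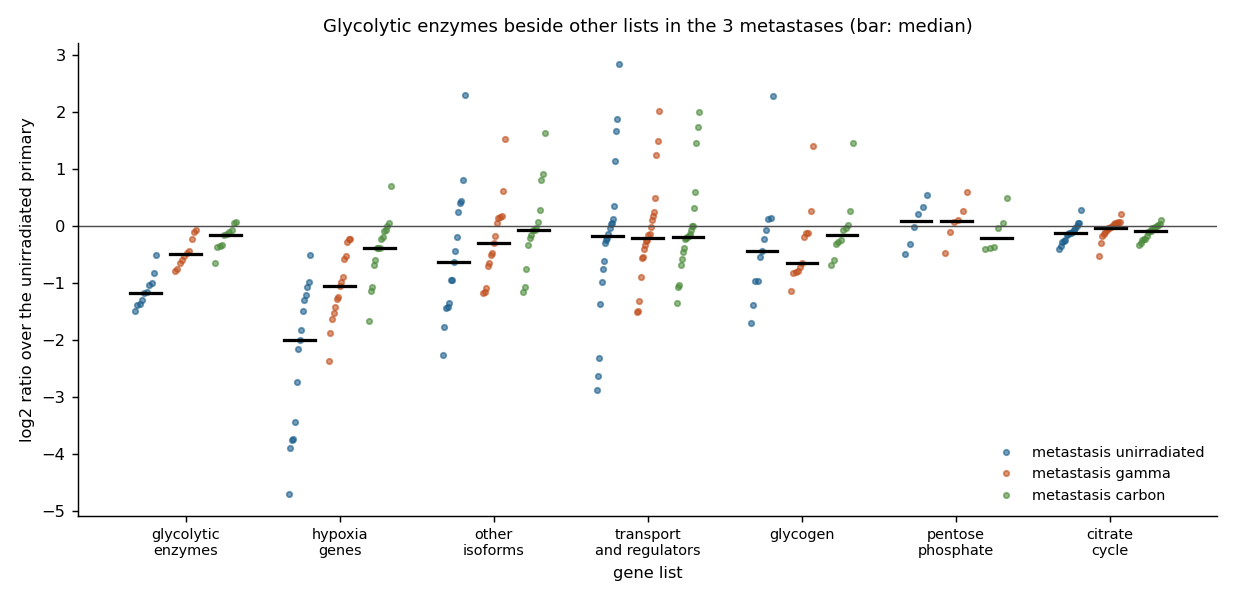
Mean log2 ratio over the unirradiated primary of every measured gene of 7 lists in the unirradiated, gamma and carbon metastasis, with the median of each list as a bar (Slc16a7, among the transporters, is measured against a primary near background). The medians of the enzymes (-1.17, -0.49 and -0.15) and of the hypoxia-induced genes outside glycolysis (-1.99, -1.05 and -0.38) step towards 0, and those of the citrate cycle genes lie near 0 throughout.

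Marker genes of other cells moved with these comparisons, and their part in the results was not tested. Keratinocyte and squamous markers, the genes that define the labelled tumour type, had 0, 1 and 0 calls in the 3 metastases, with a mean log2 level between 14.36 and 14.87 in every channel. Lung epithelial markers were higher past 2-fold in the metastases, 13 of 16 in the unirradiated and 14 of 16 in each irradiated group. Their mean level was 12.65 to 12.67 in the unirradiated, 13.47 to 13.55 in the gamma and 13.60 to 13.69 in the carbon metastasis. It was 7.53 to 9.69 over the 10 channels of the unirradiated primary, which is 1 RNA, so this reading was not stable across arrays. It was 7.73 to 7.82 in the gamma and 7.85 to 7.92 in the carbon primary, which shared no array with a metastasis. Whether the primaries differed in lung RNA was not tested. Of the 16, 8 were above background in no channel of either irradiated primary, among them the surfactant genes Sftpb and Sftpc.

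Of 10 neutrophil markers, all were higher than the unirradiated primary in the unirradiated metastasis, 8 in the gamma and 2 in the carbon metastasis. Their mean level was 12.83 to 13.01, 11.20 to 11.27 and 9.76 to 9.84 in the same order, and 9.12 to 9.44 in the unirradiated primary, so this mean ran in the opposite order to the enzymes' medians. Ltf, lactoferrin, was the exception among the 10 and read 1.21, 2.46 and 3.28 in the unirradiated, gamma and carbon metastasis. The other 9 fell past 2-fold in the carbon against the unirradiated metastasis, where 397 of the 16730 genes measured were lower. Macrophage markers were higher in 13, 6 and 5 of 13, with mean levels of 12.66 to 12.73, 11.64 to 11.66 and 11.48 to 11.50, against 10.20 to 10.36. Endothelial markers were higher in 10, 6 and 6 of 11, and T and natural killer cell markers in 9 of 12, 9 of 12 and 7 of 11. Red blood cell markers were higher in 3 of 4 in each metastasis.

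Skeletal muscle, which borders the leg tumour and is itself rich in glycolytic enzymes, marked the primaries. Muscle markers were lower than in the unirradiated primary in 15 of 18 genes in the unirradiated and gamma metastases and in 16 of 18 in the carbon metastasis. They were lower in 14 of 18 in the gamma primary too, where 196 of the 15577 genes measured were lower. Their mean level was 10.96 to 11.06 in the unirradiated, 9.05 to 9.16 in the gamma and at most 10.11 in the carbon primary. In the 3 metastases it was 8.04 to 8.21, where Casq1 and Pvalb were in no channel above background. No muscle marker was called between any pair of metastases, and the part of muscle RNA in the enzymes' ratios was not tested.

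Within the enzymes, Pkm and Pgam1 lay nearest to the median of the others over the 6 direct comparisons, at root mean square distances of 0.126 and 0.133. Hk2 lay farthest, at 0.369. Outside all lists, the 5 genes whose 6 mean ratios came nearest to the enzymes' medians were Fam162a (distance 0.0607), Rbp7 (0.0997), Spred2 (0.123), Ankzf1 (0.137) and Dusp4 (0.14). Fam162a read -1.28, -0.55 and -0.13 in the unirradiated, gamma and carbon metastasis, and -0.06 and -0.09 in the gamma and carbon primary. Rbp7 read -1.34, -0.54 and -0.16 in the metastases.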

How the data were processed

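The 12 scanner text files came from Agilent arrays of design 014868, quantified with Feature Extraction 9.1.3.1 under protocol GE2-v5_91_0806, per the file headers. Their deposited intensity values are the mean brightness of each spot and its median local background, not normalised. Their deposited log10 ratios are of Feature Extraction's processed, dye-normalised signals, and the authors' value table equalled them within 0.005. The spots' deposited p-values were not used. Ratios were computed with limma 3.58.1 in R 4.3.3: normexp background with an offset of 50, which pulls dim ratios towards 0, loess within arrays with control spots at weight 0, outlier spots left out (16 to 58 per array) and spots averaged per probe. Tables were made with Python 3.11.15 and pandas 2.3.3.

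Probes were named through RefSeq's table for GRCm38.p6: 22951 by accession, 6659 by symbol, 3109 by older symbol, 294 by gene ID and 8161 by the file's name. The brightest probe stood for a gene. A gene was measured where either RNA was well above background on each array. Levels are log2 intensities per channel after loess and Aquantile. The normalisation and the 2-fold rule were run on simulated dye swaps whose planted changes all lay well past 2-fold. Calls near the threshold, dye effects of single probes and comparisons through the unirradiated primary were not tested by it.

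The labels and source names give 1 RNA per group, which limits the precision, so the dye swaps are technical repeats. The members and lists were chosen with earlier results of these data known. All 10 members are named, and from each other list at most the 4 largest changes past 2-fold per comparison, with Gapdh, Slc2a1 and Ldhb, and the 5 genes of nearest pattern. Named beyond that rule, after their values were seen, were Hif1a, the marker Ltf, Fbp1 and Slc16a7 with no fold, and values of listed genes in comparisons where they were not called. Pfkp's promoter was not printed because its window lies within the annotated gene. Alternatives were other offsets, centring, scaling, filters, probe summaries, fold thresholds, the deposited ratios, single orientations and the subtracted dye effect. Array probe sequences and protein sequences were not used here.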

Additional observations from a re-analysis of the deposited data

Results flagged for a closer look

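Some enzymes lay above 0 in both orientations of one comparison and below 0 in both orientations of its counterpart. None of these differences between comparisons was tested, since each group was 1 RNA, and the paired comparisons share RNAs.

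Hk2 is the gene in which this occurred most often. Against no irradiation, gamma rays went with 0.44 in the metastasis and -0.35 in the primary, a difference of 0.78, and carbon ions with 0.57 and -0.25, a difference of 0.81. Read the other way, Hk2 in the metastasis against its own primary was 0.27 after gamma rays and 0.30 after carbon ions but -0.51 without irradiation, which are the same differences of 0.78 and 0.81.

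Tpi1 in the metastasis against its own primary was 0.04 in the carbon group, -1.49 without irradiation and -0.61 in the gamma group. The carbon value differed from these by 1.53 and 0.65. Ldha gave 0.22 in the carbon group, -1.16 without irradiation and -0.22 in the gamma group, with differences of 1.38 and 0.44.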

How the results depend on the processing

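No member's called direction was reversed by any alternative. The count of enzymes past 2-fold moved as follows. Between the gamma and the unirradiated metastasis, where Aldoa alone was called, it was 0 with an offset of 0 or 16, with median centring, with scaling between arrays, with the scanner's log ratios and with the authors' value table, and 4 at 1.5-fold. Between the carbon and the unirradiated metastasis the count of 3 was 1 with median centring and 8 at 1.5-fold. In the unirradiated metastasis against the unirradiated primary, the count of 3 was 6 at 1.5-fold and 7 with the dye effect subtracted (added after seeing the data), and 5 to 7 on single orientations. In the gamma metastasis the count of 0 was 1 with median centring, 2 at 1.5-fold and 1 on each single orientation (Ldha in one, Eno1 in the other). Against its own primary it was 1 with median centring and 1 at 1.5-fold. On single orientations the count was 0 to 1 in the carbon metastasis, 1 in the carbon primary (Ldha or Aldoa, by dye) and 0 to 1 for carbon against gamma primaries. The other 121 counts lay within 1.5 times. Of the members' medians 112 moved by less than the spread between orientations and 21 by more, and of single members' ratios 1183 and 137. Many of these could not have moved by more. Filters left every member in, the subtracted dye effect leaves means unchanged, and a single orientation stays within that spread for single members. Median centring moved 64 single ratios and left 46, and moved 7 medians and left 4. Genes higher in the gamma than in the unirradiated metastasis numbered 320 against 243 lower, but 253 against 291 with median centring. The order of the 3 metastases held in both orientations for 9 or 10 of 10 enzymes under the 8 ways of normalising that were run. The subtracted dye effect cancels here by design, and the authors' value table repeats the scanner's log ratios, so neither is a separate check. No paired analysis was possible because each group holds replicate number 1 only. What limits the values is 1 RNA per group and the dye error of single probes.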
